A study of Mus musculus with 3 samples.

Results

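The genes described here were 7 keratins of simple epithelia and of the periderm: Krt4, Krt6a, Krt7, Krt8, Krt18, Krt19 and Krt79. They were chosen by name among the 19165 genes of the table, and all 7 were found. Their transcripts were read in back skin of male C57BL/6 mice at 2 embryonic stages (E13.5 and E16.5, in days of gestation) and on the day of birth (P0), with no genetic change or treatment in any group. Skin of each stage went into 1 droplet library (10x 3′ chemistry), which held 5962, 5208 and 5065 cells. Embryonic skin was digested with trypsin and P0 skin with collagenase IV, so stage, library and digestion cannot be told apart. Cells were called epithelial where at least 3 of 5 epithelial genes (Perp, Trp63, Sfn, Cdh1, Dsp) were above 0. This gave 3195 epithelial cells, of which 412 were from E13.5, 1137 from E16.5 and 1646 from P0 skin.

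Keratins are the intermediate filament proteins of epithelia, and each filament is built from a type I and a type II chain. Krt8 and Krt18 are the type II and type I pair of simple epithelia, with Krt7 (type II) and Krt19 (type I) as further simple keratins. Krt4 is a type II keratin of internal stratified epithelia, Krt6a is a type II keratin of follicles and of stressed epidermis, and Krt79 is a type II keratin of the cells that line the upper hair canal. The periderm is the flat outer cell layer that covers the embryonic epidermis and is shed before birth. It is known for simple keratins that the basal layer below it, with Krt5 and Krt14, lacks. Merkel cells, the touch receptor cells of the skin, keep Krt8 and Krt18.

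In brief, the same genes were read from different cells at each stage. At E13.5, Krt7, Krt8, Krt18 and Krt19 were spread over 255 to 362 cells each, with the highest levels in epithelial cells that had periderm markers. At E16.5, Krt4, Krt6a, Krt7 and Krt19 came almost wholly from 4 cells, and 8 cells with the Merkel cell factor Atoh1 held 47.1% of Krt8 and 33.4% of Krt18. At P0, Krt79 was abundant and Krt7 was found beside it, while the other 5 keratins were close to 0.

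Of the 7 genes, 6 lie together on chromosome 15 and Krt19 lies on chromosome 11, at 100140810 to 100148665 on the minus strand (GENCODE vM21, build GRCm38). Krt8 (101996698 to 102004482, minus strand) and Krt18 (102028180 to 102032027, plus strand) are 23697 bp apart and run in opposite directions. Krt18 is a type I gene although it sits in the type II cluster. Krt4 (101918535 to 101924735) and Krt79 (101929332 to 101940324) are neighbours on the minus strand with 4596 bp between them. Krt6a lies at 101689910 to 101694307 on the minus strand and Krt7 at 101411043 to 101430313 on the plus strand. Krt6b, the close copy of Krt6a 9622 bp away, was not analysed here. No stretch of 90 bases in the last 500 bases of any transcript of the 7 genes occurred in a transcript of another gene, with 411 to 1906 stretches looked up per gene.

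RefSeq start sites with 250 bases of upstream sequence (GRCm38.p6) were at hand for 4 of the 7 genes, and they are shown because Krt8 was found with Krt18, and Krt7 with Krt79, in the same cells. Each is written 5′ to 3′ on the strand of its gene and ends at the base before the start. Motifs were searched on both strands, and capitals mark each match. The first was TATAAA, the letters of a TATA box. The second was GGGCGG, known as the GC box. The third was TGANTCA, the motif of AP-1 factors. The fourth was CCAAT, bound by NF-Y. The last was AACCGGTT, a motif of the grainyhead-like factors.
Krt8, chr15:102004343-102004592, minus strand: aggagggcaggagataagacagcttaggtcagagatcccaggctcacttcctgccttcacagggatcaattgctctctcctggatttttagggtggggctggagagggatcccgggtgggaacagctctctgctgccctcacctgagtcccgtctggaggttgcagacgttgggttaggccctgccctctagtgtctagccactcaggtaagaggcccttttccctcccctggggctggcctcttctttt
Krt18, chr15:102027966-102028215, plus strand: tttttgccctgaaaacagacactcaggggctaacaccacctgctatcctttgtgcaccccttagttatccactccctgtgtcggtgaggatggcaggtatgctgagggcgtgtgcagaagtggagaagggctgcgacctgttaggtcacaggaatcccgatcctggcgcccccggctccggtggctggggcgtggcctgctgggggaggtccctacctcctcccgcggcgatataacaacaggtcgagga
Krt7, chr15:101412153-101412402, plus strand: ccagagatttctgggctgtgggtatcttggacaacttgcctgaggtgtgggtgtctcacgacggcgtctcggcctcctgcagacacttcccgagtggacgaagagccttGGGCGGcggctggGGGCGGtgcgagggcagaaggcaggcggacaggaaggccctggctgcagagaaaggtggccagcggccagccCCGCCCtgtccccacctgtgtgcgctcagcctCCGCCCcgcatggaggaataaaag
Krt79, chr15:101940325-101940574, minus strand: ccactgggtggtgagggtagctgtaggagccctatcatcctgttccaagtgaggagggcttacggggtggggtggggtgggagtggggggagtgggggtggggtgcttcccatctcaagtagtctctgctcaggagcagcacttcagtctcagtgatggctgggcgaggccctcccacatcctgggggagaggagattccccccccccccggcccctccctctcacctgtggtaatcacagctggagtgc
The window of Krt7 held 4 matches to GGGCGG, which begin 141, 128, 56 and 24 bases before the start and do not overlap. The windows of Krt8, Krt18 and Krt79 held 0 matches to any of the 5 motifs. Among 32807 windows of the same length, 32.7% held GGGCGG, 12.4% TATAAA, 6.75% TGANTCA, 33.8% CCAAT and 0.116% AACCGGTT. A match here is a description of letters and not a binding site.

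Values below are unique molecular identifiers (UMIs), each of which stands for 1 captured transcript whatever its length. A level is given as CPM, which scales a gene's UMIs in a group of cells to a group total of 1000000, with a 95% exact Poisson interval. A difference is the log2 of the ratio of 2 levels after adding 10 CPM to each, and it was called where it was 1 or more. The intervals cover counting error only, and they are too narrow where a few cells hold most of the UMIs. There was 1 library per stage, so no test was run and no difference has a replicate check. Shares of cells with a UMI were taken after every cell was thinned to 3500 UMIs. Median depth in epithelial cells was 8880, 14083 and 10022 UMIs, in stage order. Cells with at least 3 of 5 leukocyte genes, which should lack keratins, had medians of 6792, 9780 and 6973 UMIs. The marker gate of another lineage was also passed by 57.8%, 37.6% and 18.2% of the epithelial cells, in the same order. No doublet caller was run.

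At E13.5 the simple keratins were the leading members. Krt7 stood at 204 CPM (190.9 to 218.1) in epithelial cells and 4.77 CPM in all other cells, a log2 difference of 3.86. Krt19 stood at 111 CPM (101.7 to 121.9) against 3.26 CPM, a log2 difference of 3.20. Krt8 and Krt18 were at almost the same level, 59.3 CPM (52.3 to 67.1) and 63.5 CPM (56.2 to 71.5), and their intervals overlapped. Their log2 differences from other cells were 2.29 and 2.35. Krt4 at 9.50 CPM and Krt6a at 6.95 CPM were low, with log2 differences of 0.92 and 0.76, and Krt79 had 4 UMIs in epithelial cells. In all, 4 of 7 members were called higher in epithelial cells, while 2.82% of the 13665 genes with at least 50 UMIs were. None of the 7 was called lower, against 1.69% of genes. The epithelial gate uses none of the members. Without the epithelial cells that passed another lineage gate, the log2 differences were 4.402 for Krt7, 3.58 for Krt19, 2.55 for Krt8 and 2.88 for Krt18.

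These transcripts were spread over many cells. The 1115 Krt7 UMIs of the library were found in 362 cells, of which the richest held 55, and it took 49 cells to reach 50% of them. Krt8 had 462 UMIs in 271 cells with a highest count of 16, and Krt18 had 493 UMIs in 298 cells with a highest count of 30. Krt19 had 641 UMIs in 255 cells with a highest count of 39. At the thinned depth, 33.0% of epithelial cells (28.5 to 37.8) had a Krt7 UMI, against 2.16% (0.592 to 5.44) of leukocytes. The shares were 20.6% against 0.541% for Krt19, 15.8% against 1.08% for Krt8 and 14.1% against 2.16% for Krt18. Krt4 and Krt6a were seen in 2.67% and 1.94% of epithelial cells, against 0.541% and 0% of the 185 leukocytes, where 0 allows a share of up to 1.62% (3 of the 185 cells).

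Within the epithelium, cells were split by 6 periderm genes that include no keratin, among them the tight junction genes Cldn4 and Cldn6, the receptor subunit Gabrp, the transcription factor Grhl3 and the galectin Lgals3. A cell passed this gate with at least 3 of them above 0, and 243 of the 412 epithelial cells at E13.5 did, 66 of them with exactly 3. Another 71 epithelial cells had 2 and stayed outside. In the periderm gate, Krt7 stood at 286 CPM (266.4 to 306.1), Krt19 at 158 CPM (144.1 to 173.8), Krt18 at 91.7 CPM (80.9 to 103.6) and Krt8 at 86.1 CPM (75.6 to 97.6). In the other 169 epithelial cells the levels were 48.0, 21.6, 9.46 and 8.11 CPM in the same order. The log2 differences of these 4 genes lay between 2.35 and 2.41. The 10 CPM added to each level narrows that range, since as plain ratios of the 2 levels the factors were 5.96 for Krt7, 7.33 for Krt19, 9.70 for Krt18 and 10.6 for Krt8. In the cells outside the gate the last 2 rested on 14 and 12 UMIs. Krt4 was called too, with 39 of its 41 epithelial UMIs in the gate and a log2 difference of 1.07, and Krt6a, with 29 of 30, had 0.92. This made 5 of 7 members, against 3.11% of 8129 genes, and 0 members were lower, against 0.75%. The gate is also the deeper group, with a median of 10316 UMIs against 6786, and its median fibroblast marker sum was 3 UMIs per cell, with 97 of the 243 cells passing the fibroblast gate. The part of depth in the result was not tested. Without the cells that passed another lineage gate the log2 differences of the 4 simple keratins were 2.37 to 2.92. Most of the UMIs lay in cells with nearly all periderm markers: 88 cells with 5 of the 6 markers held 597 of the 881 epithelial Krt7 UMIs and 340 of the 481 Krt19 UMIs.

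**Figure D1:**
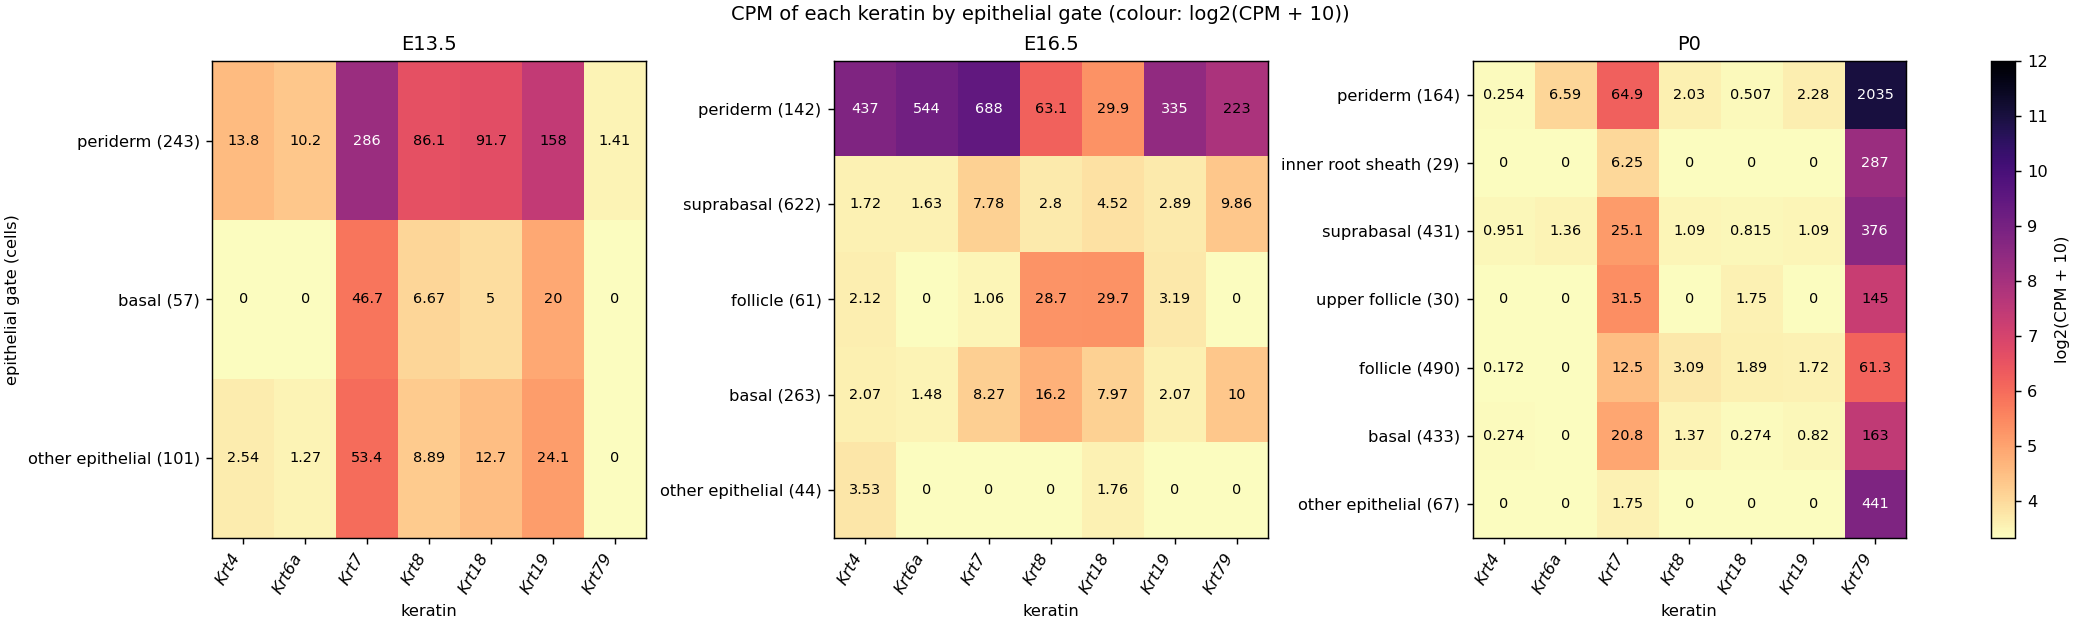
Level of each keratin (CPM, printed in each square; colour is log2(CPM + 10)) in the epithelial gates with at least 20 cells in each of the 3 libraries, with the number of cells in parentheses. The periderm gate is the row with the highest Krt7 of every library, at 286, 688 and 64.9 CPM in stage order. The E16.5 value rests mostly on the 4 cells with at least 10 Krt4 UMIs, and the gate need not hold the same kind of cell at each stage.

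Co-expression in single cells at E13.5 was partial. At the thinned depth 209 of 412 epithelial cells had none of the 7 keratins, 96 had 1, 65 had 2, 32 had 3, 9 had 4 and 1 had 5. Of the 65 cells with a Krt8 UMI, 20 (30.8%, 19.9 to 43.4) also had Krt18, against 38 of 347 cells without Krt8 (11.0%, 7.87 to 14.7). Within the periderm gate alone the shares were 32.2% of 59 cells and 17.4% of 184 cells, with intervals of 20.6 to 45.6 and 12.2 to 23.7 that overlapped. Krt19 was found in 36.8% of Krt7 cells and 12.7% of cells without Krt7, and inside the gate in 42.2% (32.8 to 52.0) and 20.1% (13.7 to 27.9). With all UMIs in place of 3500, 52.9% of 119 Krt8 cells had Krt18, against 15.7% of the other cells. Krt8 made up 48.3% (44.0 to 52.6) of the UMIs of the pair.

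At E16.5 the sums and the single cells gave different pictures. Summed over epithelial cells, all 7 members were called higher than in other cells, against 3.09% of 13613 genes, and 0 lower, against 4.74%. Krt7 stood at 106 CPM, Krt6a at 79.03, Krt4 at 64.1, Krt19 at 50.1, Krt79 at 39.6, Krt8 at 22.7 and Krt18 at 13.46 CPM. Log2 differences from other cells ran from 1.13 for Krt18 to 3.18 for Krt7. Yet at the thinned depth 8.97% of epithelial cells (7.37 to 10.8) had any member, against 5.73% of 157 leukocytes (2.65 to 10.6), and these intervals overlapped. The library held 1294 Krt4 UMIs, and 4 cells with 472, 358, 234 and 101 of them accounted for 90.03%. The fifth cell had 2. The cells with at least 10 Krt4 UMIs were set apart after these values had been seen, and what follows on them is a description.

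**Figure D2:**
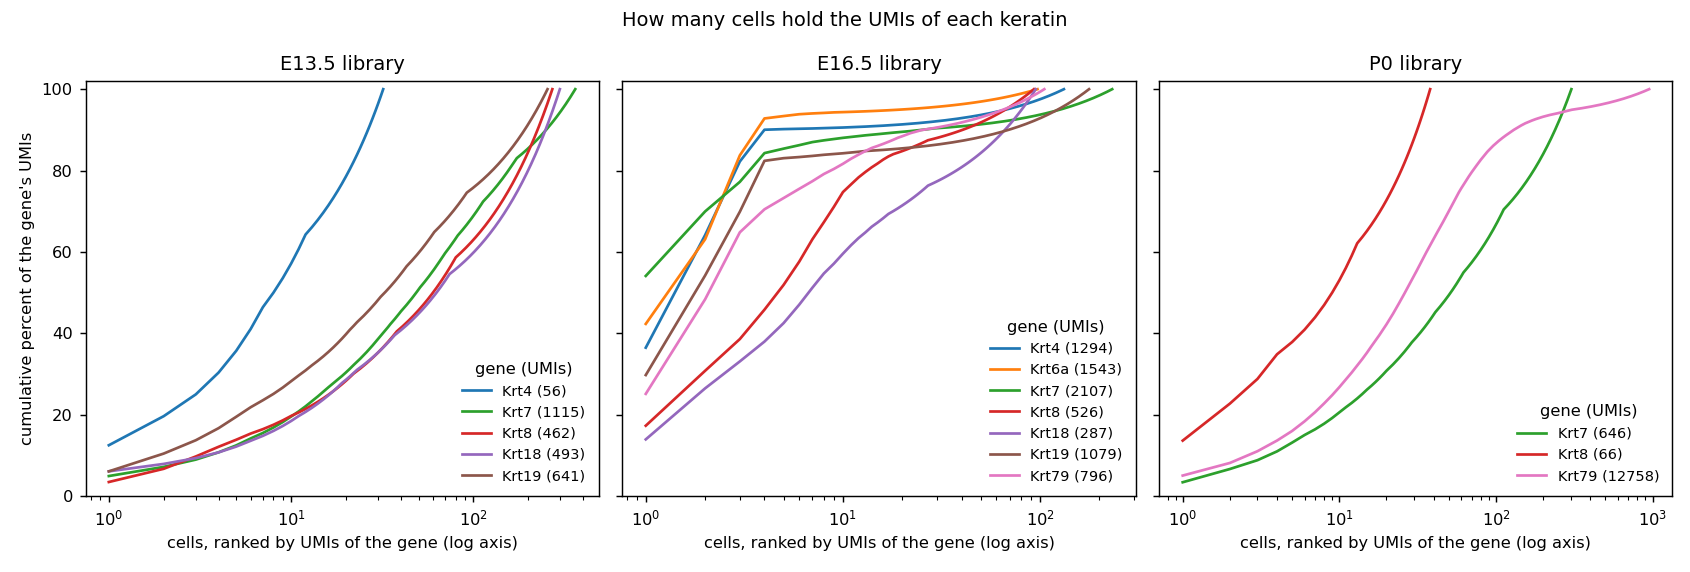
Cumulative percent of the UMIs of each keratin (vertical axis) over all cells of a library ranked by their UMIs of that gene (horizontal axis, log scale), for genes with at least 50 UMIs in the library. At E16.5 the curves of Krt4, Krt6a, Krt7 and Krt19 reach 82.4% to 92.8% within 4 cells, while at E13.5 the 4 richest cells hold 10.8% to 30.4%.

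The same 4 cells held 92.8% of the Krt6a UMIs of the library, 84.3% of Krt7, 82.4% of Krt19, 29.8% of Krt8, 23.7% of Krt18 and 0.377% of Krt79. Their Krt6a counts were 653, 318, 321 and 140 UMIs, in the order of their Krt4. Their Krt7 counts were 1140, 334, 149 and 153 UMIs, so the cell with the most Krt4 alone held 54.1% of all Krt7. Krt19 was at 321, 169, 264 and 135 UMIs. Krt8 was at 19, 29, 71 and 38 UMIs and Krt18 at 12, 14, 36 and 6, so both were low beside Krt7 in the cell that was richest in it. Each of these 6 keratins was thus found in all 4 cells, while Krt79 was at 1, 0, 2 and 0 UMIs. As levels, Krt7 reached 12231 CPM, Krt6a 9862 CPM, Krt4 8023 CPM and Krt19 6122 CPM over the 4 cells.

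Other genes set these 4 cells apart as well. Krt15, a type I keratin usually of basal cells, was at 16721 CPM, while its usual companions Krt14, at 68.9 CPM, and Krt5, at 578 CPM, were far below the 3761 and 2154 CPM of the other epithelial cells. Krt17, a keratin of follicles and early epidermis, was at 0 in all 4. Sprr1a, a cornified envelope gene, had 1390 UMIs or 92.7% of the library, and Krt13, the type I partner of Krt4, had 172 UMIs or 87.8%. Upk1b, a uroplakin of the bladder surface, had 599 UMIs or 92.7%, and Psca, a surface antigen, had 1640 UMIs or 94.0%. Of the 6 periderm genes, Lgals3 (28 to 33 UMIs a cell) and Cldn4 (6 to 20) were found in all 4 cells, Gabrp had 5 UMIs in all and Cldn6 had 0. Of 4 mesothelial markers, Upk3b had 259 UMIs and Msln 145, while Lrrn4 had 0 and Wt1 had 1. The epithelial markers Perp (235 UMIs), Sfn (118) and Dsp (99) were present, and Trp63 had 2 UMIs. Of the 5 suprabasal genes, Sbsn had 222 UMIs and Lor 115, of which 89 lay in 1 cell. Krt10 had 52 UMIs, Krtdap 21 and Krt1 9. Of 5 fibroblast markers all were seen, at 0 to 9 UMIs a cell. The 4 cells held 58958, 43526, 22811 and 19910 UMIs in all, above the epithelial median of 14083. What part depth or 2 cells in 1 droplet had in their profile was not tested.

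**Figure D3:**
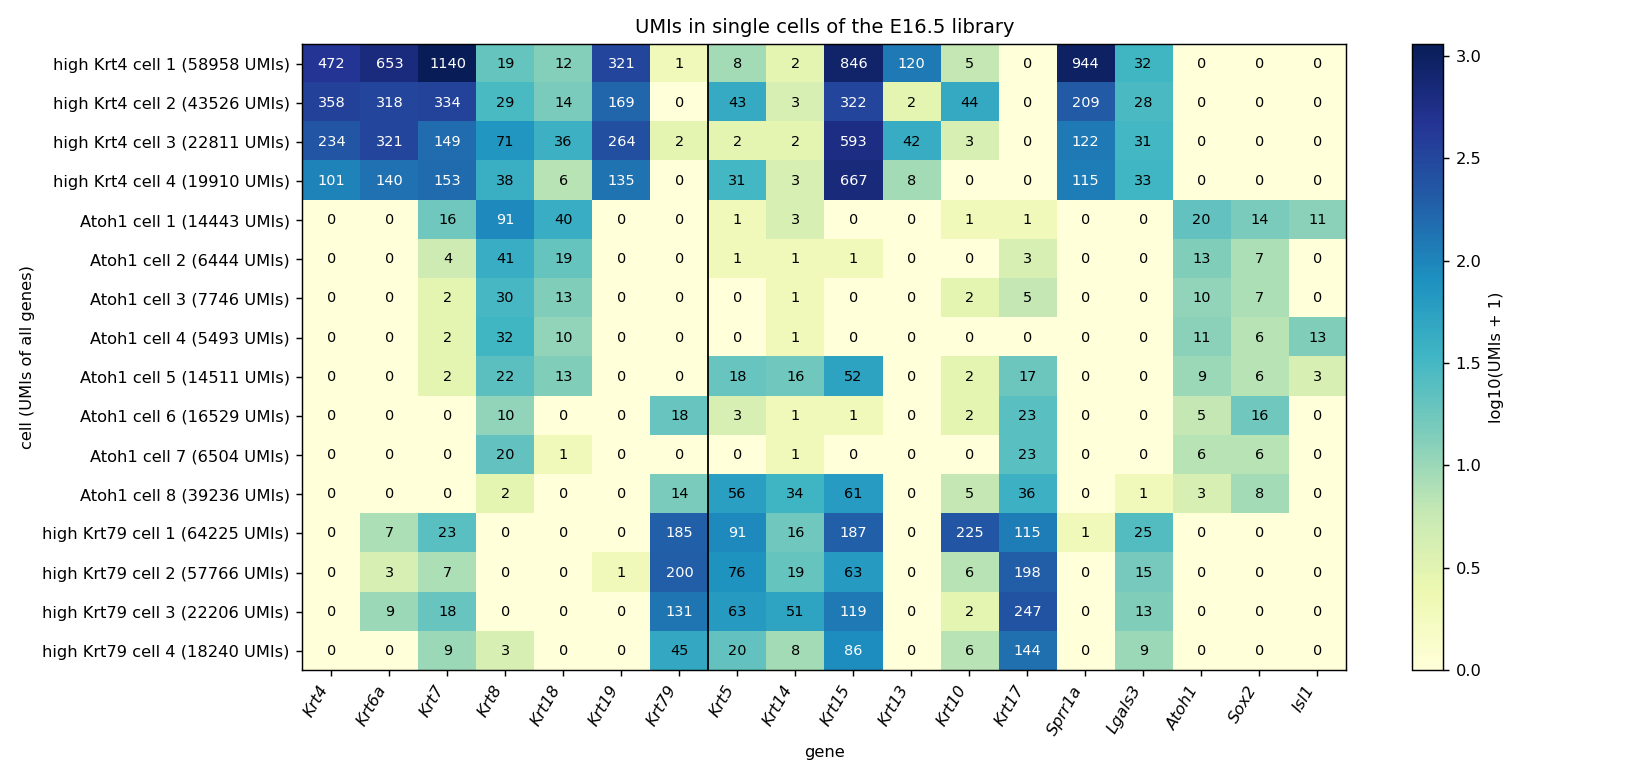
UMIs (printed, with colour as log10(UMIs + 1)) of the 7 keratins, left of the line, and of 11 other genes in the cells of the E16.5 library with at least 10 Krt4 UMIs, at least 3 Atoh1 UMIs or at least 40 Krt79 UMIs, with the UMIs of each cell in parentheses. Krt4, Krt6a and Krt19 are filled in the top 4 rows and at 0 in the 8 Atoh1 rows, where Krt8 runs from 2 to 91 UMIs.

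Without these 4 cells the epithelial sums at E16.5 were different. Krt4 stood at 1.88 CPM (1.31 to 2.62) in the other 1133 epithelial cells, beside 1.83 CPM (1.40 to 2.36) in fibroblasts and 5.45 CPM (2.49 to 10.4) in leukocytes. Krt6a was at 2.58 CPM, Krt19 at 2.69 CPM and Krt7 at 10.8 CPM, with 1.202, 2.71 and 2.83 CPM in fibroblasts. The members called higher in epithelial cells were then 2 of 7, Krt8 at a log2 difference of 1.01 and Krt79 at 2.16. Krt4 was at -0.01 and Krt19 at -0.03. Both remaining calls rested on further small groups, which are described next. Of the 268 Krt8 UMIs of these 1133 cells, 72 (3.90 CPM) were left without the cells with Atoh1, and 561 of their 739 Krt79 UMIs lay in 4 cells. Without all 3 groups, 0 of 7 members were called, with Krt8 at 0.32, Krt18 at 0.55 and Krt79 at 0.69. In the periderm gate, which 142 epithelial cells passed at E16.5, 6 members had been called with all cells, against 2.06% of 11289 genes (0 lower, against 0.7%), and 1 (Krt79, log2 difference 3.69) was called without the 4 cells. Krt8 was then at -0.82. The remaining 138 cells of the gate had Krt4 at 1.97 CPM, Krt19 at 2.76 CPM and Krt7 at 25.7 CPM, and Krt10, a suprabasal keratin, at 3231 CPM. Krt10 was found in 113 of these 138 cells. The Krt79 and Krt7 levels rested on the 4 cells richest in Krt79, since Krt79 stood at 235 CPM (595 UMIs) in the 138 cells and at 14.3 CPM (34 UMIs) in the 134 others, where Krt7 was at 3.38 CPM. Without the 3 groups 0 members were called in the gate, and Krt79 was at a log2 difference of 0.06. Shares over all genes were computed with all cells only, so counts of members called without these groups have no such share beside them. Of all 142 cells, 94 had exactly 3 of the 6 markers.

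Krt8 and Krt18 followed another course at E16.5. Atoh1 was found at 3 or more UMIs in 8 cells, a group also chosen after the values had been seen, of which 6 passed the epithelial gate. These cells held 248 of the 526 Krt8 UMIs (47.1%) and 96 of the 287 Krt18 UMIs (33.4%). Their Krt8 counts were 91, 41, 30, 32, 22, 10, 20 and 2 UMIs, and their Krt18 counts were 40, 19, 13, 10, 13, 0, 1 and 0 in the same order. The 5 cells with the most Krt18 were also the 5 with the most Krt8, and Krt8 was the higher of the pair in every one. Krt4, Krt6a and Krt19 were at 0 in all 8, Krt7 was at 16, 4, 2, 2 and 2 UMIs in the first 5, and Krt79 was at 18 and 14 UMIs in the sixth and the last. Sox2 (70 UMIs), a further Merkel cell factor, was found in all 8, and Isl1 (27 UMIs) in 3. Of the other Merkel cell markers, Chga had 6 UMIs, Snap25 and Rab3c 2 each, and Krt20, a marker of mature Merkel cells, was at 0. At least 3 of the 7 markers were found in 4 of the 8 cells. The neuronal tubulin Tubb3, a gene of the neural list, had 81 UMIs here, or 31.6% of the library, in 7 of the 8 cells. The rest of the 6 neural genes were low, with Map2 at 10 UMIs, Stmn2 at 3, Elavl4 at 2, Elavl3 at 1 and Stmn3 at 0. At least 3 of the neural genes were found in 1 of the 8 cells. Other lists were found in these cells as well. At least 3 markers were seen in 5 of the 8 for the basal list, 3 for the suprabasal list and 2 for the fibroblast list. The sixth cell, with the most Sox2 (16 UMIs) and no Krt18, had 137 UMIs of the collagen gene Col1a1. In depth the 8 cells ran from 5493 to 39236 UMIs, and the last was the deepest. What part depth or 2 cells in 1 droplet had in their profile was not tested.

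Of the pair, Krt8 made up 72.1% (67.0 to 76.8) of the UMIs in the Atoh1 cells and 69.8% (63.3 to 75.7) in the 4 cells rich in Krt4. In the epithelial cells outside both groups it made up 42.1% (34.6 to 49.9) of 171 UMIs, beside 48.3% at E13.5, and that interval overlapped neither of the first 2. A high Krt8 share was not confined to those groups. It was 67.1% (55.1 to 77.7) of 73 UMIs in the non-epithelial cells of E16.5, with 71.1% (54.1 to 84.6) in fibroblasts, and 67.2% (54.3 to 78.4) of 64 UMIs in the epithelial cells of P0 without Atoh1. In the 61 cells of the follicle gate, Krt8 stood at 28.7 CPM (18.9 to 41.7) and Krt18 at 29.7 CPM (19.8 to 43.0), with Krt7 at 1.06 CPM and Krt79 at 0. Suprabasal cells had 2.80 and 4.52 CPM of the pair. At the thinned depth 8 of 19 Krt8 cells (42.1%, 20.3 to 66.5) had Krt18, against 24 of 1118 other epithelial cells (2.15%, 1.38 to 3.18). Without the 10 epithelial cells with the most keratin UMIs in the library, the share among Krt8 cells was 21.4%.

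Krt79 at E16.5 lay in yet other cells. Of its 796 UMIs, 70.5% were in 4 cells with 200, 185, 131 and 45, chosen after their values had been seen, and the fifth cell had 22. Those 4 had Krt7 at 7, 23, 18 and 9 UMIs, Krt6a at 3, 7, 9 and 0, no Krt4 or Krt18, and 3 UMIs of Krt8 in all. Krt17 was at 198, 115, 247 and 144 UMIs in them, where the cells rich in Krt4 had none. They held genes of several layers. The suprabasal genes Krtdap (355 UMIs), Krt1 (333) and Krt10 (239) and the basal genes Krt15 (455) and Krt5 (250) were the most abundant of the marker lists beside the epithelial Perp (458). Most of the suprabasal UMIs lay in 1 cell. The suprabasal list summed to 789 UMIs in the richest cell, with a median of 63 and a lowest sum of 30. Krt10 was at 225 UMIs in the cell with 185 Krt79 UMIs and at 2 to 6 in the others. Sbsn had 17 UMIs in all and Lor 1. Sox9 (83 UMIs) and Lhx2 (40), transcription factors of the follicle, and Lrig1 (18), a gene of the upper follicle, were present, while Dkk4 was at 0, Gata6 had 1 UMI, Edar 3, Lgr5 4 and Plet1 7. At least 3 markers were found in all 4 cells for the suprabasal, basal and follicle lists and in 3 of the 4 for the upper follicle. All 4 passed the periderm gate, with Lgals3 at 62 UMIs, but Cldn4 had 7 UMIs, Grhl3 6, Cldn6 3 and Gabrp 0. In the order of their Krt79, the 4 cells held 57766, 64225, 22206 and 18240 UMIs in all, above the epithelial median of 14083. The cell with 225 Krt10 UMIs was the deepest of them. At least 3 fibroblast markers were found in 2 of the 4. What part depth or 2 cells in 1 droplet had in their profile was not tested. Over epithelial cells without the cells rich in Krt4 and the Atoh1 cells, Krt79 was the gene most correlated with Krt7 (Pearson r = 0.50 over 1127 cells, described with no test).

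**Figure D4:**
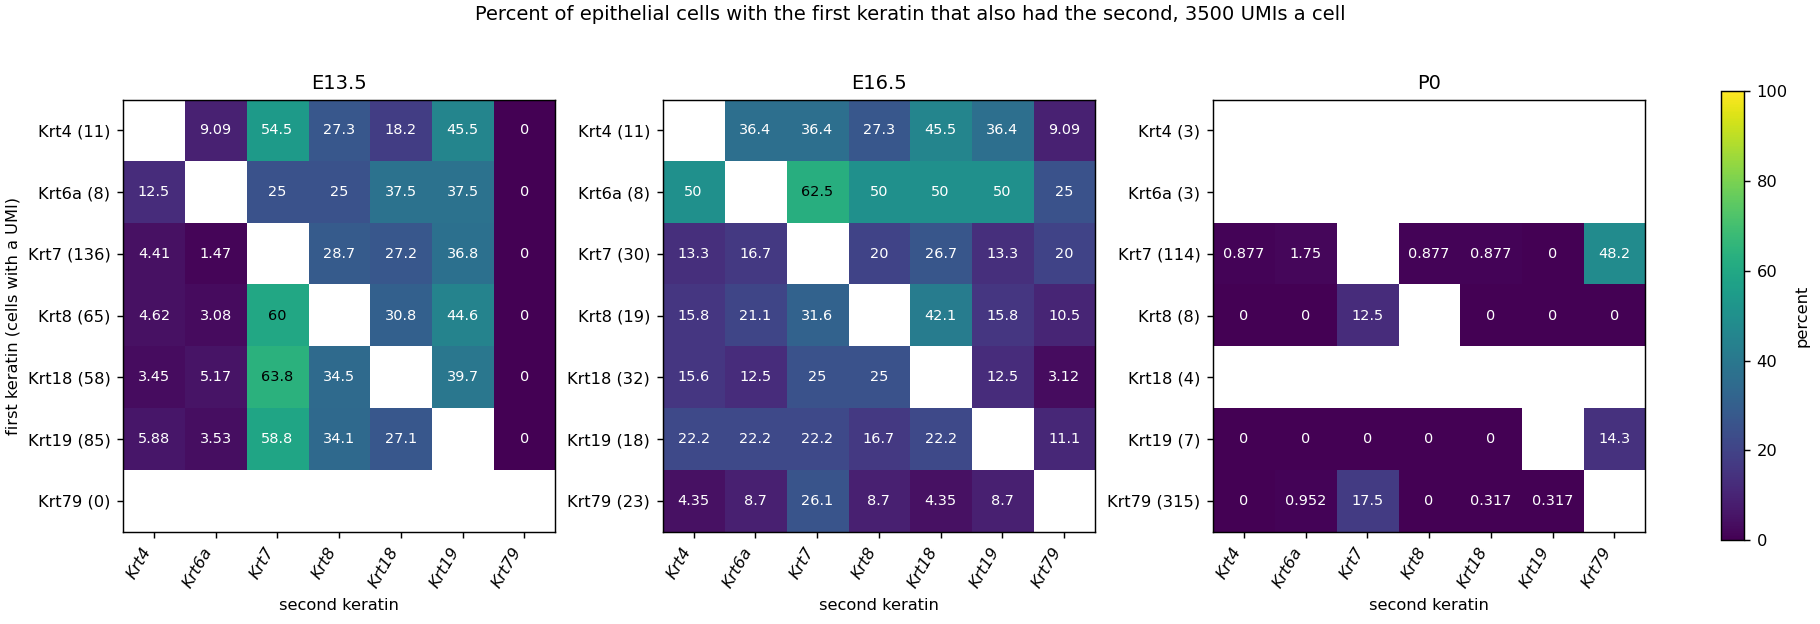
Percent of epithelial cells with a UMI of the first keratin (rows, number of cells in parentheses) that also had a UMI of the second (columns), every cell thinned to 3500 UMIs, for each of the 3 libraries. Rows with under 5 cells and the diagonal are blank. The squares around Krt7, Krt8, Krt18 and Krt19 run from 27.1% to 63.8% at E13.5, and at P0 Krt79 in Krt7 cells is at 48.2%.

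At P0 the picture was that of Krt79. It stood at 545 CPM (534.9 to 554.3) in epithelial cells, with 12758 UMIs in 950 cells of the library and a highest count of 644. Krt7 followed at 27.5 CPM (25.3 to 29.7). Krt8 at 2.18 CPM, Krt6a at 1.60, Krt19 at 1.34, Krt18 at 1.25 and Krt4 at 0.446 CPM were close to 0. Against all other cells the log2 differences were 4.10 for Krt79 and 1.74 for Krt7, and these 2 of 7 members were called, against 3.98% of 12934 genes, with 0 lower, against 7.34%. At the thinned depth 19.1% of epithelial cells (17.3 to 21.1) had a Krt79 UMI and 6.93% (5.75 to 8.26) a Krt7 UMI. Among the 48 leukocytes 4.17% had Krt79 and none had Krt7, which allows a share of up to 6.25% (3 of the 48 cells).

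Krt79 was concentrated, though less than at E16.5. The 74 cells with at least 40 UMIs held 80.9% of it, and 1123 of the 1646 epithelial cells had 0. Krt7 was highest in the cells richest in Krt79. It stood at 12.4 CPM (10.5 to 14.4) in cells without Krt79, 12.6 CPM in cells with 1 UMI, 47.5 CPM in cells with 2 to 9, 37.8 CPM in cells with 10 to 39 and 104 CPM (91.9 to 116.9) in the 74 richest. The step between cells with 2 to 9 and those with 10 to 39 UMIs was within counting error. Of the 114 cells with a Krt7 UMI at the thinned depth, 55 (48.2%, 38.8 to 57.8) had Krt79, against 260 of 1532 cells without Krt7 (17.0%, 15.1 to 18.9). The periderm gate gave 85.2% (66.3 to 95.8) and 34.3% (26.4 to 42.9) on its own. Krt18 was at 0 in the 74 richest cells and Krt8 had 3 UMIs. Krt6a had 26 of its 37 UMIs there, in 8 cells.

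Each of the 74 cells was counted in the first gate it passed, with the periderm gate ahead of the suprabasal, follicle and basal gates. This put 44 in the periderm gate, 22 in the suprabasal gate and 3 each in the basal and follicle gates. Taken list by list, 65 of the 74 passed for basal, 65 for suprabasal, 38 for follicle and 33 for upper follicle markers. Krt17 was at 4302 CPM in the 74 cells, against 2208 CPM in cells without Krt79, and Krt14 at 2586 against 4610 CPM. Klk7, a protease of the outer epidermis, had 91.5% of its UMIs there, Cst6, a protease inhibitor of the cornified layer, 68.4%, and the lipoxygenase gene Alox12e 54.5%. Gata6, a transcription factor of the upper follicle, had 25.3%, in 20 of the 74 cells. Lrig1 and Plet1, of the same upper follicle list, had 13.2% and 13.6%, in 52 and 62 of the 74 cells. Klk7 was found in 31 of the 74 cells, Cst6 in 40 and Alox12e in 63, and 1 cell held 397 of the 797 Cst6 UMIs. Alox12e (r = 0.50) and Klk7 (0.47) were named for their correlation with Krt79 over the P0 epithelial cells. Their concentration in cells chosen by Krt79 follows from that choice. Of all 46599806 UMIs of the library, the 74 cells held 2629799. The median depth of these cells was 31610 UMIs against 9046 in cells without Krt79, and 39 of the 125 epithelial cells above 30000 UMIs were among them. The part of depth in the choice of these cells was not tested. As a level, Krt79 reached 3925 CPM in them. In the periderm gate as a whole (164 cells, of which 115 had exactly 3 markers) it stood at 2035 CPM against 227 CPM in the rest of the epithelium, a log2 difference of 3.11. Krt7 was at 64.9 against 19.5 CPM, a log2 difference of 1.35, which made 2 of 7 members called, against 1.11% of 11128 genes, with 0 lower, against 0.656%. Gabrp, found in 179 of 243 gate cells at E13.5, had 0 UMIs in the whole P0 library, so its absence is not particular to the 74 cells. The gate genes with most UMIs thus differed. The E13.5 gate cells had 1390 UMIs of Gabrp, 842 of Cldn6 and 16 of Lgals3, while the 74 cells had 3 of Cldn6 and 1001 of Lgals3. Those were 17.6% of the Cldn6 and 8.75% of the Lgals3 UMIs of the P0 library, so Cldn6 was low in the library as a whole.

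Krt8 and Krt18 were nearly absent at P0, with 66 and 32 UMIs in the whole library. Atoh1 was at 3 or more UMIs in 2 cells, which held 15 of the Krt8 UMIs (22.7%) and 7 of the Krt18 UMIs (21.9%). At the thinned depth 0 of 8 Krt8 cells had Krt18, which allows a share of up to 37.5% (3 of the 8 cells). With another thinning seed it was 30.0%, and with all UMIs it was 6 of 30 cells, so the thinned value is not a firm one.

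Set side by side, the epithelial levels differed in 3 ways between stages. Krt4 (log2 difference 1.93), Krt6a (2.39) and Krt79 (2.18) were higher at E16.5 than at E13.5, while Krt8 (-1.08), Krt18 (-1.65) and Krt19 (-1.01) were lower and Krt7 was at -0.89. Calls upward took 3 of 7 members and 2.23% of 11806 genes, and calls downward took 3 of 7 members and 3.19% of genes. Without the 4 cells rich in Krt4, the values were -0.71 for Krt4, -0.43 for Krt6a, -3.36 for Krt7 and -3.26 for Krt19, so the first 2 turned in sign and the other 2 were lower still. Krt8 (-1.51), Krt18 (-1.88) and Krt79 (2.19) kept their sign. Without the Atoh1 and the Krt79-rich cells as well, Krt79 was at 0.72 and 0 members were called higher at E16.5. Shares of cells give no order for Krt4 and Krt6a, since 2.67% of epithelial cells had Krt4 at E13.5 and 0.967% at E16.5, against the direction of the sums. From E16.5 to P0, Krt79 was higher (3.48) and the other 6 were lower, from -1.06 for Krt18 to -2.94 for Krt6a. Upward calls covered 1.73% of 12452 genes and downward calls 2.17%. Without the 4 cells, Krt7 was at 0.85 and 1 member (Krt8, -1.003) was called lower. The shares over all genes were computed with all cells in place. The comparisons share the E16.5 cells. A lower sum over the epithelium cannot tell fewer cells of a kind from less RNA per cell.

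**Figure D5:**
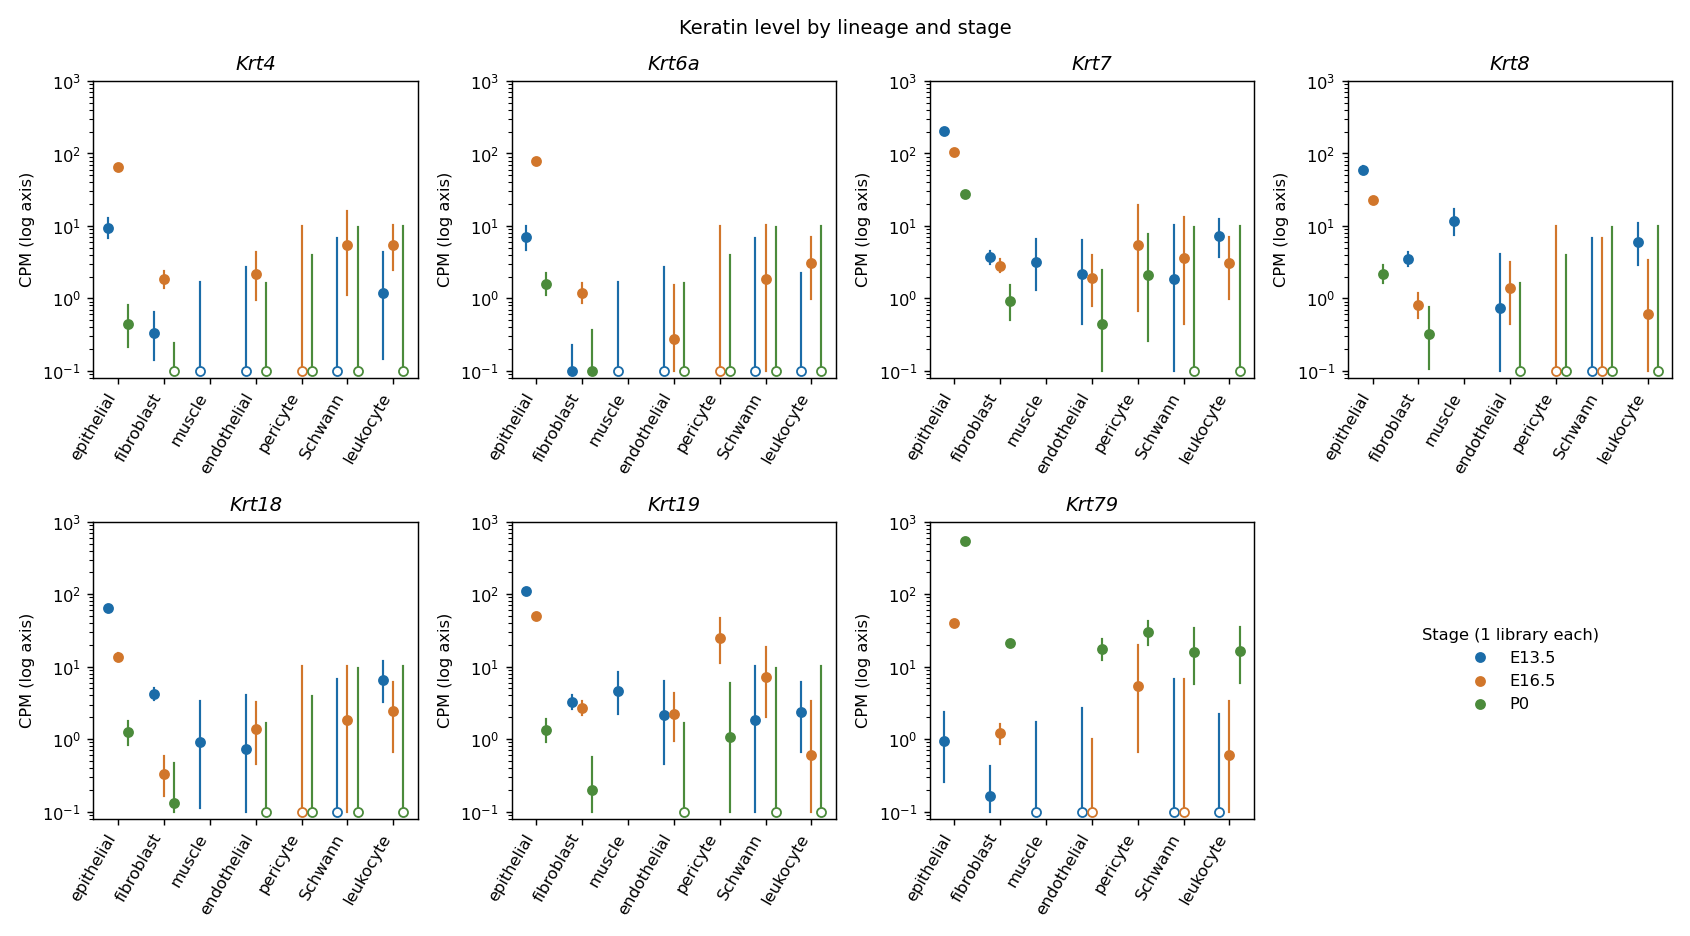
Level (CPM, log axis) of each keratin in epithelial cells and in 6 other lineages with at least 40 cells, by stage; points are 1 library each, bars are 95% exact Poisson intervals cut at 0.1 CPM, and open points at the foot stand for 0 UMIs. Epithelial points stand highest for the called members, while Krt79 at P0 lies between 15.7 and 29.9 CPM in every other lineage shown.

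Outside the epithelium the keratins were low but not equally so. At E13.5, fibroblasts held 1.80% of the epithelial level of Krt7 and 2.96% of Krt19, beside 2.27% for Krt5 and 2.303% for Krt14. Krt8 at 5.90% and Krt18 at 6.68% stood above them. Leukocytes, which should lack keratins, were at 10.1% (4.85 to 18.6) for Krt8 and 10.4% (5.18 to 18.6) for Krt18. Those intervals, on 10 and 11 UMIs, overlapped the ones of fibroblasts (4.72 to 7.30 and 5.46 to 8.11). The fibroblast UMIs were thinly spread, with 85 Krt8 UMIs in 65 of 2810 fibroblasts and no cell above 5. In cells with muscle markers, Krt8 stood at 11.5 CPM (7.46 to 17.0), or 19.4% of the epithelial level, and Krt18 at 0.922 CPM (0.112 to 3.33), or 1.45%. Krt8 in leukocytes was at 6.00 CPM, and its interval as a percent of the epithelial level overlapped that of muscle (12.6 to 28.7). The 25 Krt8 UMIs lay in 18 of 219 muscle cells, and Krt8 made up 92.6% (75.7 to 99.1) of the pair there, against 48.3% in the epithelium. At the thinned depth 5.48% of muscle cells had Krt8, against 1.08% (0.131 to 3.85) of leukocytes at a median of 6704 and 6792 UMIs. Krt19 in pericytes at E16.5 rested on 9 UMIs, of which 7 were in 1 cell. At P0, Krt79 was at 20.9 CPM in fibroblasts, 17.5 in endothelial cells, 16.4 in leukocytes and 29.9 in pericytes, which is 3.01% to 5.49% of the epithelial level. The other lineages thus held a like, low share of this gene.

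Other genes of the same filaments and of their control also differed between the periderm gate and the rest of the epithelium. From a list of 20 further keratins, 6 were measured with at least 50 UMIs in the E13.5 split. Krt17 (1559 against 167 CPM, log2 difference 3.15) and Krt5 (1.45) were called higher in the gate and Krt15 (-1.09) lower. At E16.5, 5 of 10 were called higher (Krt1, Krt10, Krt77, Krt13, Krt78) and none lower, where the Krt13 call rests on the 4 cells. Over all genes the share called higher in the gate was 3.11%, 2.06% and 1.11% in stage order. Of 13 epidermal regulators, 11, 11 and 12 were measured at the 3 stages, and 4 were called higher at each: Grhl1 (1.21, 2.24 and 1.35 in stage order), Grhl3, which is a gate gene, Ovol1 (1.47, 1.60 and 1.71) and Klf5 (1.31, 1.11 and 1.10). Trp63, the factor of basal cells and an epithelial gate gene, was lower in the gate at E13.5 (-1.58) and at -0.01 at E16.5. Of the proteins that anchor keratins to junctions, 5 of 7 measured were called higher in the gate at E13.5 and again at E16.5: Dsp (an epithelial gate gene), Ppl, Evpl, Jup and Pkp1. Periplakin (Ppl), which links filaments to desmosomes, had log2 differences of 2.15 and 2.35, and at P0 it had 0.88. Median log2 differences of the members with at least 50 UMIs were 2.40, 4.76 and 2.23 at the 3 stages, against 0.00, -0.03 and -0.11 over all genes. These medians cover different members: Krt7, Krt8, Krt18 and Krt19 at E13.5, all 7 at E16.5, and only Krt7 and Krt79 at P0. The 50 UMIs were counted over both groups together, so a member could enter through the gate alone. At E13.5 the gate held 244 of the 256 epithelial Krt8 UMIs and 260 of the 274 Krt18 UMIs. Members low in both groups dropped out, so the medians lean upward and do not stand for all 7 at E13.5 and P0. The E16.5 median rests on the 4 cells rich in Krt4, and without them it was 0.01.

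Genes with the most similar pattern differed by stage. Over the 412 epithelial cells at E13.5, the gate gene Gabrp led the list for Krt7 (r = 0.72), Krt19 (0.54), Krt18 (0.52) and Krt8 (0.50), with Slc2a3, a glucose transporter, among the next for 3 of them and Upk1b for Krt7 (0.64) and Krt8 (0.49). Over the 1137 epithelial cells at E16.5, Krt6a led for Krt7 (0.78) and Krt19 (0.86), which rests on the 4 cells, and Krt8 led for Krt18 (0.77). Without the 4 cells and the Atoh1 cells, Krt8 still led for Krt18 (0.44). At P0, Krt79 led for Krt7 (0.38 over 1646 cells) and Alox12e for Krt79 (0.50). Over 17 groups of 1 lineage and 1 stage, Krt6a was the gene most like Krt4 (r = 0.98). It rests in part on the 4 cells, as r was 0.89 without them. Serpinb2 was most like Krt6a (0.98, and 0.41 without the 4 cells) and Gjb6 most like Krt7 (0.98, and 0.92). Upk1b was among the 3 genes most like Krt8 (0.96), Krt18 (0.97) and Krt19 (0.97). Cells and groups of a library share depth and free RNA, so these values are descriptions with no test.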

How the data were processed

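The authors aligned droplet reads to mm10 and counted UMIs with Cell Ranger (2.2.0 in the submitters' processing notes). The deposited table holds natural log (ln) values, which the values themselves show to be ln(1 + UMIs per 10000 UMIs of the cell). All 48197283 values above 0 gave whole UMIs within a tolerance of 0.001, 166173741 in all, with 3453 to 101984 per cell. The design text counts 15086 cells and the table holds 16235. Columns were assigned to stages by prefix, with 0 other sample columns. The libraries share 32 to 44 cell barcodes pairwise.

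From these UMIs, sums, CPM, log2 differences with 10 CPM added, exact Poisson and exact binomial (Clopper-Pearson) intervals at 95%, co-detection in cells thinned to 3500 UMIs (1 cell at E16.5 left out) and Pearson correlations were computed in Python 3.11.15 with numpy and scipy 1.17.1. With 1 library per stage there was no test. Gates needed at least 3 markers above 0. An epithelial cell was put in the first gate it passed, in this order: Merkel, periderm, inner root sheath, suprabasal, upper follicle, follicle, basal. One gene of the periderm gate is not reported here. At the epithelial gate 207, 177 and 411 cells had exactly 3 genes, and 369, 680 and 442 cells with 2 genes stayed outside. Named genes are the members, the gate, marker and list genes and, per member, the genes with the highest correlations. Groups defined by Krt4, Atoh1 or Krt79 UMIs, and genes given for them outside the lists, were chosen after the values were seen. The members and lists were chosen with earlier results of these data known. The differences and intervals were tested on simulated data. Alternatives changed the gates, depth, weights, added CPM and cells left out. Defb6, Krt6b and Eppk1 were not analysed here. A share of 0 is given with the limit that 3 counts allow. Intervals cover counting error only.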

Additional observations from a re-analysis of the deposited data

How the results depend on the processing

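No paired analysis was possible because there was 1 library per stage and the result comes from no test. The values above are sums of 1 library, so depth limits what can be seen of Krt4, Krt6a and Krt79 at E13.5 and of Krt4, Krt8, Krt18 and Krt19 at P0. Counts of members called and shares of cells stayed close to the reported value in 109 of the planned comparisons, and 13 moved. Among log2 differences of single members, 241 stayed within their counting interval, 235 moved beyond it and 0 of these reversed a call. The members called higher in the periderm gate at P0 were 1 (Krt79) with thinned cells or with a gate of at least 2 markers. Krt18 in Krt8 cells at E13.5 was 44.4% with at least 4 epithelial genes and 52.9% with all UMIs. The share of epithelial cells with any member was 26.2% at P0 with at least 4 genes. With at least 2 genes it was 37.0%, 6.82% and 20.5% in stage order. Without cells that passed another lineage gate it was 56.9% at E13.5. With all UMIs it was 61.9%, 25.6% and 41.6% at the 3 stages, and with another thinning seed it was 21.6% at P0 against 23.8%.

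Leaving out cells, an alternative chosen after seeing the data, moved 14 counts, and the UMIs of the cells left out are the cause by construction. No share over all genes was computed for any of the alternatives. Without the 10 epithelial cells richest in keratin, 0 members were called higher in epithelial cells or in the periderm gate at E16.5, 0 were higher at E16.5 than at E13.5, and from E16.5 to P0 there were 2 higher and 0 lower. Without the cells with at least 10 Krt4 UMIs, the counts at E16.5 were 2 in epithelial cells and 1 in the periderm gate, with 1 higher than at E13.5 and 1 lower at P0. In the first setting the reversed log2 differences were -0.0092 for Krt4 and -0.032 for Krt19 (epithelial against other cells), -0.60 for Krt4 and -0.48 for Krt6a (E16.5 against E13.5), 1.03 for Krt7 (P0 against E16.5), and -0.37 for Krt7, -0.36 for Krt8 and -0.017 for Krt19 (periderm gate). In the second they were -0.012 for Krt4 and -0.029 for Krt19, -0.71 for Krt4 and -0.43 for Krt6a, 0.85 for Krt7 and -0.82 for Krt8. In the last setting, without the cells at E16.5 with at least 10 Krt4, 3 Atoh1 or 40 Krt79 UMIs, 0 members were called higher at E16.5 in epithelial cells or in the periderm gate, 0 were higher than at E13.5, and at P0 there were 2 higher (Krt7 and Krt79) and 0 lower. The reversed log2 differences there were -0.0083 for Krt4 and -0.031 for Krt19 (epithelial against other cells), -0.71 for Krt4 and -0.55 for Krt6a (E16.5 against E13.5), 0.0027 for Krt6a and 1.18 for Krt7 (P0 against E16.5), and -0.34 for Krt7, -0.094 for Krt8 and -0.013 for Krt19 (periderm gate).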
